A study of Mus musculus with 6 samples.

Results

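In strand-specific RNA-seq libraries from embryonic stem (ES) cells of the mouse, 316 of 24054 annotated genes collected more reads from the strand opposite to the gene than from the gene's own strand. These opposite-dominant genes were chosen by their counts summed over all 6 libraries: the opposite-strand sum had to exceed the sense sum and reach 200. The names Gm17762 and Dnajc1 were left out beforehand. Because these sums chose the genes, the dominance of the opposite strand is a description and was not tested. The sums do not use the groups, so the contrast between groups could be tested.

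Strand-specific libraries keep the direction of each transcript. In mammalian genomes many neighbouring genes are transcribed towards or away from each other and share exonic sequence at their ends. Antisense transcripts and the Xist and Tsix pair of the X chromosome are well-known cases of transcription from both strands. When counts are made per gene and per strand, a read pair from a shared stretch enters the sense count of the gene that made it and the opposite-strand count of the gene across from it.

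The study compared ES cells without Morc3, an ATPase of the MORC family examined as a silencing factor of endogenous retroviruses, with ES cells of the wild-type line. The 3 Morc3 ko libraries are called clones 1, 2 and 3 after the numbers in their titles. The paper lists 3 single ko clones with these numbers, derived by Cas9 cutting of that wild-type line. The match of library to clone rests on the numbers. The 3 wild-type libraries are named p42, p43 and p56 after their titles, where the letter p is not explained, and share 1 line. All cells grew without feeders in serum with LIF. Clones and cultures of 1 line are the replicates, so p-values measure the spread between these libraries.

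Sense gene counts amounted to between 10740618 and 14123131 per library, and opposite-strand gene counts to between 136615 and 172743, or 1.21% to 1.27% of both strands. Values are given as CPM, counts scaled to a sense gene total of 1e+06 per library. Summed sense CPM of 10 ES cell markers ranged from 6253 to 6415 in ko and from 5808 to 6000 in wild type, and none of them was at 0. Summed CPM of 6 fibroblast genes came to 431 to 468 in ko and 310.4 to 481 in wild type. Of these genes 1 was at 0 in all libraries, and Fn1 held most of the sum, with 31570 sense counts over the 6 libraries. The 6 primitive endoderm genes came to 1.25 to 1.56 CPM in ko and 1.92 to 2.76 in wild type. The 5 genes of 2-cell-like cells came to at most 0.093 CPM, 4 of them at 0. Morc3 reached 78.4, 136 and 132 sense CPM in ko clones 1, 2 and 3 against 281, 275 and 301 in p42, p43 and p56. All ko values were below all wild-type values (log2 fold change -1.30, SE 0.16, adjusted p = 6.5e-04 by edgeR), so Morc3 transcripts were reduced but not absent. Sense counts of chromosome 14 stood apart most in p56, with a median log2 deviation from the mean of the 6 libraries of 0.34. This median was -0.102, -0.112 and -0.137 in ko clones 1, 2 and 3, and -0.005 in both p42 and p43. The other chromosomes lay between -0.041 and 0.048 in all libraries, so the ko clones were outside this range too.

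The 316 genes held 57.7% to 60.3% of all opposite-strand gene counts in each library. Opposite-strand sums ranged from 200 to 24315 with a median of 725.5, and 130 genes reached 1000 counts. The 10 most counted genes together held 27.3% of the opposite-strand counts of the 316. The opposite strand was larger in 6 of 6 libraries for 302 genes, and it was at least 10 times the sense count for 198 genes. A sense sum of 0 was found for 32 genes. The immune transcription factor gene Foxp3, which marks regulatory T cells, was among them, with 1615 opposite-strand counts across from Ccdc22. Foxp3, like the microRNA, imprinted and opposite-strand-named genes described further on, was chosen after its values were seen.

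**Figure D1:**
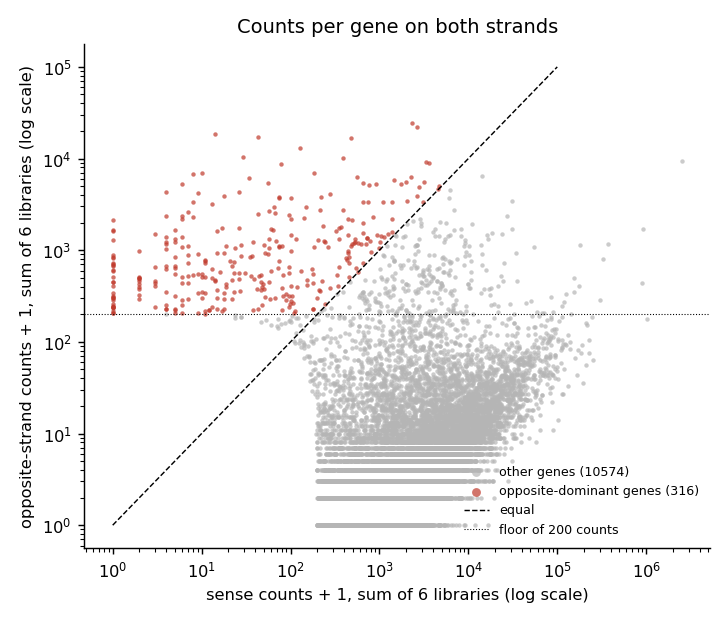
Opposite-strand counts (vertical axis) against sense counts (horizontal axis) per gene, each summed over 6 libraries plus 1 on log scales, for genes with at least 200 counts on both strands together. The 316 chosen genes (red) lie above the dashed line of equal counts and the dotted floor by construction, up to 24315 counts, while the 10574 other genes (grey) lie mostly far below the line.

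At the edges of the rule, 4930481A15Rik had 200 opposite-strand counts, Abhd11os 203 and Il12rb2 203, and just outside lay 4933428G20Rik with 198, 4930413G21Rik with 195 and LOC102633315 with 195. By the ratio of opposite to sense counts, Cables2 (583 to 574), Crbn (4705 to 4528) and Abi3 (259 to 243) were nearest inside. AU040320 (328 to 331), Abhd1 (201 to 204) and 2200002D01Rik (214 to 218) were nearest outside.

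Of the 302 genes that could be matched to the GENCODE annotation of GRCm38, 190 were protein coding, 68 were annotated as antisense, 22 as processed transcripts, 10 as lincRNAs and 7 as miRNAs. By their symbols, 71 were Rik clones, 32 were predicted Gm genes and 20 carried a name that marks the opposite strand of another gene. Protein-coding genes among the 316 had a median of 959.5 opposite-strand and 95 sense counts. The other 126, the unmatched genes included, had medians of 543.5 and 14.5 counts.

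Exons of 280 of the 302 matched genes (92.7%) overlapped an exon of a gene on the other strand that is listed in the files. This gene is called the partner, and where several overlapped, the partner was the 1 with the most sense counts. Among 10504 other matched genes with at least 200 counts, 2062 (19.6%) had such an overlap. The 302 genes were chosen by their opposite-strand counts, so this contrast is a description too and was not tested. Partners were protein coding in 273 of 280 pairs. The exonic overlap had a median of 409.5 bp and ranged from 8 to 4584 bp.

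Most pairs, 187 of 280, lay tail to tail, that is, with their transcript ends overlapping. Another 45 pairs lay head to head, 37 genes lay inside the partner and 11 partners lay inside the gene. Of 142 tail to tail pairs in which both genes code for protein, the overlap fell mostly in the 3′ UTR of the partner in 106 pairs and mostly in the 3′ UTR of the opposite-dominant gene in 117 pairs. It reached coding sequence of the partner in 67 pairs. Among 45 head to head pairs, the overlap lay mostly in the 5′ UTR of the partner in 31. The opposite-dominant gene was coding in 144 and non-coding in 43 of the tail to tail pairs, and coding in 15 and non-coding in 30 of the head to head pairs.

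The opposite-strand count of a gene amounted to a median of 16.1% of the sense count of its partner. It was at most as large as the partner's sense count in 276 of 278 pairs with a partner above 0. The exceptions were Xist against Tsix, at 133%, and Mir290b against Mir290, at 111%. Because a shared read pair enters both counts, an opposite-strand count no larger than the partner's sense count is largely given by the counting. By geometry the median was 19.1% for tail to tail pairs, 8.57% for head to head pairs, 13.5% for genes inside the partner and 23.0% for partners inside the gene.

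**Figure D2:**
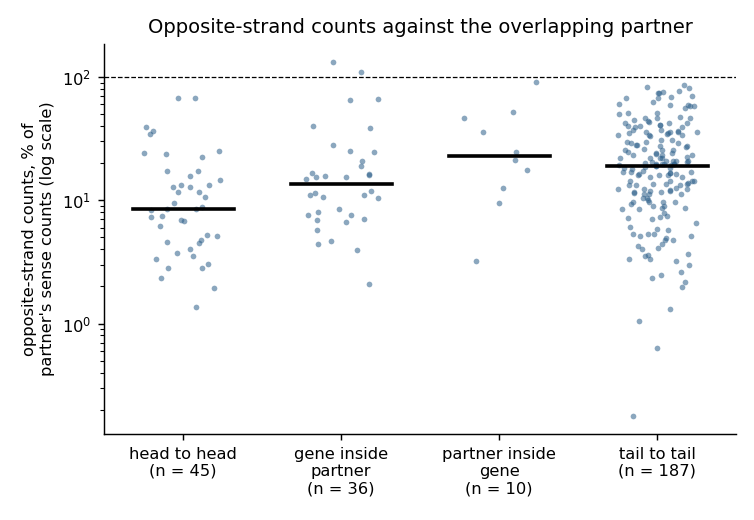
Opposite-strand counts of each gene in percent of the sense counts of its partner (log scale), both summed over 6 libraries, by the arrangement of the pair. Points are pairs and black bars are medians (8.57%, 13.5%, 23.0% and 19.1% from left to right), and only Xist and Mir290b lie above the dashed line at 100%.

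A count that ignores strand drops read pairs that overlap more than 1 gene, so the stranded counts that are absent from it measure how much of a gene's signal lies within another annotated gene. For the median opposite-dominant gene 87.9% of the stranded counts were absent from the unstranded count, against 0.0% for other genes with at least 200 counts. At least 90% were absent for 142 of the 316 genes and at most 10% for 26. Among the 10574 other genes, 3 reached 90% and 9992 stayed at or under 10%. Over all 316 genes together 78.9% were absent, with 77.5% to 80.01% in single libraries. The absent share is computed from the same strand counts that chose the 316 genes. The other genes had a median of only 0.16% of their stranded counts on the opposite strand. The contrast with them is therefore a description of the chosen genes and was not tested.

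**Figure D3:**
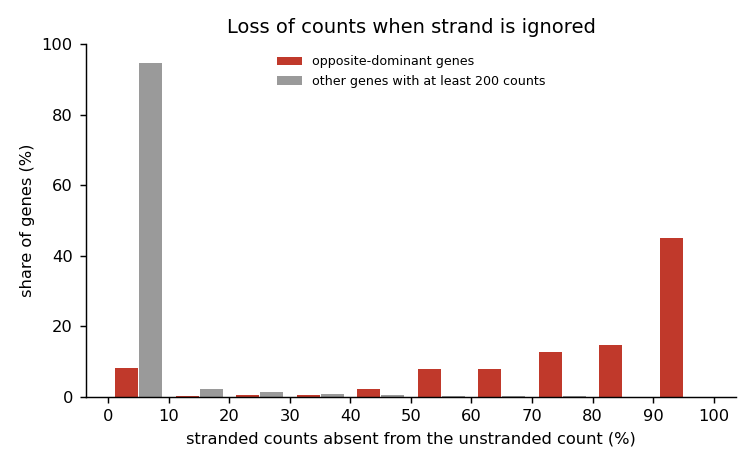
Share of genes (vertical axis, percent) by the percentage of their stranded counts that is absent from the unstranded count (horizontal axis, bins of 10 points). Of the opposite-dominant genes (red) 44.9% fall in the highest bin and 8.23% in the lowest, whereas 94.5% of other genes (grey) fall in the lowest. The percentage is computed from the strand counts that chose the red genes.

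Ignoring strand still changed what was counted for these genes. The unstranded sum was at least 2 times the sense sum for 138 of the 316 genes. Where these reads lay was not tested, and the sense sum was under 10 for 103 genes, where few reads reach this ratio. The unstranded sum was below the sense sum for 72 genes, and 11 genes had no unstranded count left.

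Of the 15 genes with the largest opposite-strand sums, 13 had a partner. Tmem55b, which encodes a lysosomal phosphoinositide phosphatase, had 24315 opposite-strand and 2340 sense counts. It lies tail to tail with Apex1, a DNA repair endonuclease gene, over 877 bp on chromosome 14, and its opposite-strand count came to 83.4% of the Apex1 sense count. All of the overlap falls in the 3′ UTR of Tmem55b and 708 bp of it in coding sequence of Apex1. Acat3, an acetyl-CoA acetyltransferase gene, had 18627 opposite-strand and 13 sense counts across from the chaperonin gene Tcp1. Cand2 had 16628 and 479 counts across from the ribosomal protein gene Rpl32, Rpgrip1, a gene of the photoreceptor cilium, 12890 and 128 across from Supt16, and Snx22 10380 and 28 across from the ER isomerase gene Ppib.

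Map3k15 had 10202 opposite-strand counts across from Pdha1, a subunit gene of pyruvate dehydrogenase. Sums of 9160, 8927 and 8787 were found for Tti2 across from Mak16, Prpf39 across from Fkbp3, and the serine racemase gene Srr across from Tsr1. Ino80dos had 7004 across from Ndufs1, a subunit gene of respiratory complex I, the melanosome exchanger gene Slc24a5 6990 across from Myef2, the lymphocyte adaptor gene Sla2 6703 across from 1110008F13Rik, and Lpcat3 6341 across from Emg1. Among these 13 paired genes the stranded counts absent from the unstranded count ranged from 69.6% for Tti2 to 99.8% for Sla2. AV051173 had 17106 opposite-strand and 42 sense counts, 98.9% of them absent from the unstranded count, and was not matched to GENCODE.

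Lars2, the gene of the mitochondrial leucyl-tRNA synthetase, was the exception at the top of the list. It had 22062 opposite-strand and 2627 sense counts, and none of them (0.0%) was absent from the unstranded count. GENCODE places no exon of another gene on its opposite strand. Its opposite-strand counts were 3680, 4288 and 3114 in ko clones 1, 2 and 3 and 3808, 3355 and 3817 in p42, p43 and p56, so every library contributed. At 343, 372 and 278 CPM in ko and 280, 238 and 293 CPM in wild type, the groups overlapped because clone 3 lay below p42 and p56. Fitted by edgeR, the ko to wild-type log2 ratio was 0.29 (SE 0.09, adjusted p = 0.090). Without p56 it was 0.36 (adjusted p = 0.0047 by edgeR), and limma-voom gave an adjusted p of 0.0080. Lars2 was not called by DESeq2, nor by edgeR without ko clone 3 or without p42.

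Besides Lars2, 25 genes had at most 10% of their stranded counts absent from the unstranded count. After Lars2 the largest were 4930548H24Rik with 2216 opposite-strand and 5 sense counts, C230091D08Rik with 1656 and 0, and Cox20, an assembly factor gene of cytochrome oxidase, with 1178 and 492. Of the 26 genes, 13 had an exon-overlapping partner, 4 had one in GENCODE that is not listed under that name in the files, among them 4930566F21Rik across from 4930548H24Rik, 8 had none in GENCODE and 1 was not matched. The absent share follows the annotation that the authors counted with, which may place exons differently from GENCODE. Fold changes of the 26 genes between ko and wild type ranged from -0.23 to 0.29 on the log2 scale. None was called (0 of 26 by edgeR's quasi-likelihood test, smallest adjusted p = 0.090), where 0.809% of all genes tested were called, so that a list of this size is too short to be told from the background.

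Among genes whose names mark the opposite strand of another gene, the named gene was the partner in 15 of 20. Rbm3os, head to head with the cold-inducible gene Rbm3, was the largest of these, with 6081 opposite-strand and 33 sense counts. Uchl1os had 1081 and 5, and Cebpzos had 3450 and 2051. Ino80dos and Phtf1os had other partners, Ndufs1 and Rsbn1.

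At the X inactivation centre, Xist, the RNA that coats the inactive X chromosome, had 678 opposite-strand counts and 3 sense counts. Its partner Tsix, the antisense repressor of Xist, had 509 sense counts. Xist opposite-strand counts were 109, 101 and 130 in ko clones 1, 2 and 3 and 93, 144 and 101 in p42, p43 and p56, with overlapping groups. Its log2 fold change was 0.30 (SE 0.15, adjusted p = 0.61 by edgeR), and that of Tsix sense counts was 0.81 (SE 0.22, adjusted p = 0.083 by edgeR). Only 23.6% of the stranded Xist counts were absent from the unstranded count, fewer than for the median gene. In a list of 50 genes of known antisense pairs, Xist was the only opposite-dominant gene, and Tsix, Ube3a, Morf4l2 and Uchl1 were partners. The list held Ube3a, Morf4l2 and Uchl1 without the opposite-dominant genes across from them, C230091D08Rik, BC065397 and Uchl1os. The counts for this list therefore depend on how it was written. Of the listed genes 0 of 8 tested on the opposite strand were called by edgeR, with 0 at an unadjusted p under 0.05, where 0.809% of all genes tested were called and 8.46% had such a p. On the sense strand 0 of 22 were called and 5 had an unadjusted p under 0.05, against 1.24% and 14.6% of all genes tested.

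Genes near imprinted loci were also found. C230091D08Rik overlaps the 3′ end of the imprinted ubiquitin ligase gene Ube3a on chromosome 7 and held 269, 224 and 250 opposite-strand counts in ko clones 1, 2 and 3 and 313, 281 and 319 in p42, p43 and p56. It had no sense count in any library, and its CPM overlapped between groups (log2 fold change -0.01, SE 0.12, adjusted p = 0.99 by edgeR). Peg3os, named for the strand opposite to the imprinted gene Peg3, had 988 opposite-strand counts and 1 sense count. Its CPM was 15.3, 14.7 and 14.9 in ko and 13.0, 12.1 and 10.8 in wild type. The groups did not overlap, but the gene was not called (log2 fold change 0.32, SE 0.13, adjusted p = 0.38 by edgeR).

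The 7 microRNA genes among the 316 had between 231 and 491 opposite-strand counts, at most 2 sense counts, and 100% of their stranded counts were absent from the unstranded count. Mature microRNAs are too short for libraries of this kind, so these counts do not measure them. Mir290b and Mir292b lie on the minus strand of chromosome 7, across from Mir290 (Mir290a in GENCODE) and Mir292 of the miR-290 to miR-295 cluster, which is the characteristic microRNA cluster of mouse ES cells. Those of their mature products for which an overlapping product of the other strand was found are shown. Both strands of the same hairpin DNA are annotated as microRNA genes with different seeds. The remaining product, miR-292b-5p, has the seed CUCAAAA and is not shown. For Mir292 only miR-292a-5p was available here, so whether another product lies across from miR-292b-5p was not examined. The sequences are from RefSeq for GRCm38.p6, written 5′ to 3′, with the seed (bases 2 to 8) in capitals.
mmu-miR-290b-3p: aAGUGCCCccauaguuugagua
mmu-miR-290a-5p: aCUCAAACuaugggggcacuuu
mmu-miR-290b-5p: gCUUAAAAcuaggcggcacuuu
mmu-miR-290a-3p: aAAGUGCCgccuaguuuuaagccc
mmu-miR-292b-3p: aAGAGCCCccaguuugaguau
mmu-miR-292a-5p: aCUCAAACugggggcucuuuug

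The miR-290b-3p stretch covers 21 bases of the miR-290a-5p stretch on the other strand, miR-290b-5p covers 22 bases of miR-290a-3p, and miR-292b-3p covers 19 bases of miR-292a-5p. No such pair has the same seed, while miR-290a-5p and miR-292a-5p share theirs. Mir290b had 79, 73 and 72 opposite-strand counts in ko clones 1, 2 and 3 and 80, 108 and 79 in p42, p43 and p56. Mir292b had 68, 68 and 77 in ko and 70, 101 and 60 in wild type. As CPM the groups overlapped for both genes, with log2 fold changes of 0.03 (SE 0.16) and 0.17 (SE 0.17) and edgeR-adjusted p of 0.98 and 0.92. Mir292, the partner of Mir292b, had 0 sense counts in every library. Nlrp12, also on the minus strand, overlaps Mir292 as well, over 82 bp in the 3′ UTR of Nlrp12. It had 458 opposite-strand and 13 sense counts (log2 fold change -0.03, SE 0.17, adjusted p = 0.98 by edgeR).

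The other microRNA genes were Mir1896, inside an exon of Zscan26, Mir6357 inside Poli, Mir6340 inside Rab22a, and Mir5128 and Mir421, which had no exon-overlapping partner in the files. The mature sequences of 4 of them are shown for comparison of the seeds, with capitals as before.
mmu-miR-1896: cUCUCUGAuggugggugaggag
mmu-miR-5128: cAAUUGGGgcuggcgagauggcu
mmu-miR-6340: gUCAGCAGcagcuucgcuuuggc
mmu-miR-421-5p: cUCAUUAAauguuuguugaau
These seeds differ from each other and from those of the miR-290b and miR-292b products. The log2 fold changes of the 5 genes ranged from -0.27 for Mir421 to 0.27 for Mir6340, and none was called (edgeR-adjusted p of 0.86 and 0.89 for these 2).

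To determine whether opposite-strand counts changed without Morc3, all genes with sufficient opposite-strand counts were compared between ko and wild-type libraries. All 316 genes passed the filter on low counts, and 4 of them (1.27%) were called at an adjusted p under 0.01 by edgeR's quasi-likelihood test, 3 higher and 1 lower in ko. Over all 1359 genes tested, 11 were called (0.809%), with 0.662% called higher and 0.147% called lower, so the share among the 316 was near the background. An unadjusted p under 0.05 was found for 30 of the 316 genes (9.49%), against 8.46% of all genes tested. All ko values lay on 1 side of all wild-type values in 33 of the 316 genes (10.4%), against 12.4% of all genes tested.

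Fold changes were small. The median log2 fold change of the 316 was -0.01, against 0.01 for all genes tested, and 306 genes lay within 0.5 of 0. The values ranged from -0.77 to 0.77, so none reached a fold change of 2. The summed opposite-strand level of the 316 genes was 7341, 7510 and 7491 CPM in ko clones 1, 2 and 3 and 7352, 7176 and 7621 CPM in p42, p43 and p56, with overlapping groups. The 4 calls rest on single libraries to different degrees. DESeq2 called only BC065397 among the 316, as did edgeR without ko clone 3 and without p42, and 2 genes were called without ko clone 2.

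BC065397, a processed transcript on chromosome X (136741824 to 136803364, GRCm38, plus strand), had the smallest adjusted p. Its opposite-strand counts reached 69.2, 73.1 and 70.9 CPM in ko clones 1, 2 and 3 and 39.7, 37.7 and 47.6 CPM in p42, p43 and p56. Every ko library was above every wild-type library, with means of 71.0 ± 1.95 and 41.7 ± 5.27 CPM (SD, n = 3), which edgeR fitted as 0.77 on the log2 scale (SE 0.10, adjusted p = 1.7e-08). BC065397 lies head to head with Morf4l2, a chromatin factor gene, with 98 bp of exonic overlap in the 5′ UTR of Morf4l2, and 90.3% of its stranded counts were absent from the unstranded count. Morf4l2 sense counts were 1109, 1286 and 1191 CPM in ko and 907.8, 889 and 1038 CPM in wild type. Its groups did not overlap either, but Morf4l2 was not called (log2 fold change 0.34, SE 0.07, adjusted p = 0.030 by edgeR), and the opposite-strand count of BC065397 came to 5.19% of it. In bulk samples a change in the number of cells that carry a transcript and a change in its amount per cell cannot be told apart.

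Stk16, a serine/threonine kinase gene, reached 51.2, 52.7 and 55.3 opposite-strand CPM in ko clones 1, 2 and 3 and 42.9, 36.6 and 38.0 in p42, p43 and p56. All ko values were above all wild-type values (log2 fold change 0.44, SE 0.10, adjusted p = 0.0043 by edgeR). Its partner Tuba4a, an alpha-tubulin gene on the other strand of chromosome 1, overlaps it tail to tail over 1379 bp, in the 3′ UTR of both genes. Tuba4a rose from 328 ± 8.26 to 406 ± 6.08 sense CPM (SD, n = 3, log2 fold change 0.31, SE 0.05, adjusted p = 0.0069 by edgeR). Stk16 sense counts had a log2 fold change of 0.13 (SE 0.08, adjusted p = 0.54 by edgeR).

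Kansl1l, a paralog of the chromatin factor gene Kansl1, reached 23.7, 19.7 and 17.6 opposite-strand CPM in ko and 14.98, 13.38 and 14.14 in wild type, again without overlap (log2 fold change 0.52, SE 0.12, adjusted p = 0.0088 by edgeR). Its call was lost when any of the 6 libraries was left out, with edgeR-adjusted p between 0.012 and 0.24. The partner Rpe, an epimerase gene of the pentose phosphate pathway, shares 558 bp of 3′ UTR with it. Rpe rose from 114 ± 5.01 to 166 ± 3.26 sense CPM (SD, n = 3, log2 fold change 0.54, SE 0.06, adjusted p = 3.9e-04 by edgeR). Kansl1l sense counts had a log2 fold change of -0.25 (SE 0.23, adjusted p = 0.70 by edgeR).

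Gm10785, an antisense gene on chromosome 16 (91688898 to 91715642, plus strand), was the gene that fell. It reached 8.75, 7.11 and 6.96 opposite-strand CPM in ko clones 1, 2 and 3 and 14.2, 14.5 and 10.1 in p42, p43 and p56, where p56 was the lowest wild-type value but above all ko values (log2 fold change -0.77, SE 0.15, adjusted p = 4.4e-04 by edgeR). Its sense counts did not exceed 3 in any library. The partner Cryzl1, a quinone oxidoreductase-like gene, fell from 57.5 ± 7.93 to 35.2 ± 2.96 sense CPM (SD, n = 3, log2 fold change -0.71, SE 0.11, adjusted p = 0.0041 by edgeR).

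**Figure D4:**
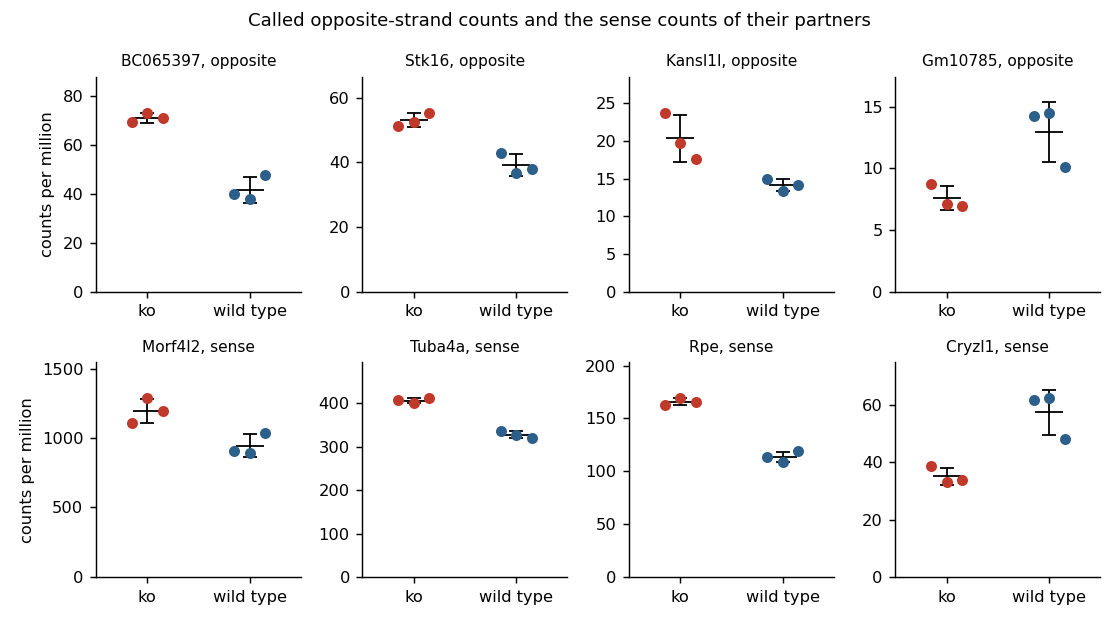
Opposite-strand CPM of the 4 called genes (upper row) and sense CPM of their partners (lower row). Points are the 3 ko (red) and 3 wild-type (blue) libraries with mean and SD, and in all 8 panels the ko and wild-type points do not overlap.

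Other large differences were not called. Of the 5 highest fold changes, the 2 uncalled ones were those of Mast1 (log2 fold change 0.55, adjusted p = 0.23 by edgeR), across from the nuclease gene Dnase2a, and B3gnt9 (0.44, adjusted p = 0.080 by edgeR), across from D230025D16Rik. After Gm10785, the lowest values were those of BC037032 (-0.75, adjusted p = 0.056 by edgeR) across from the ketone body enzyme gene Oxct1, 3110021N24Rik (-0.68, adjusted p = 0.16 by edgeR) across from Zfyve9, Pilra (-0.60, adjusted p = 0.15 by edgeR) across from Zcwpw1 and 4931440J10Rik (-0.60, adjusted p = 0.15 by edgeR) across from Ints6. BC037032 had 32, 25 and 40 counts in ko and 62, 70 and 67 in wild type, without overlap. Oxct1 itself fell in sense counts (log2 fold change -0.39, SE 0.07, adjusted p = 0.0096 by edgeR).

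Since a read pair in a shared stretch enters both counts, the opposite-strand change of a gene and the sense change of its partner were set side by side. Of 278 pairs with both values, 222 had the same sign, and the median absolute difference between the 2 log2 fold changes was 0.06. It was 0.04 for the 119 pairs in which the gene had at least 1000 opposite-strand counts and 0.09 for the others. Across genes, which are not independent replicates and here share read pairs, Pearson's r was 0.74 over all 278 pairs and 0.86 over the 119. The difference was under 0.25 in 259 of the 278 pairs. Among the pairs with larger differences were Xist, at 0.30 against 0.81 for Tsix, and BC065397, at 0.77 against 0.34 for Morf4l2.

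**Figure D5:**
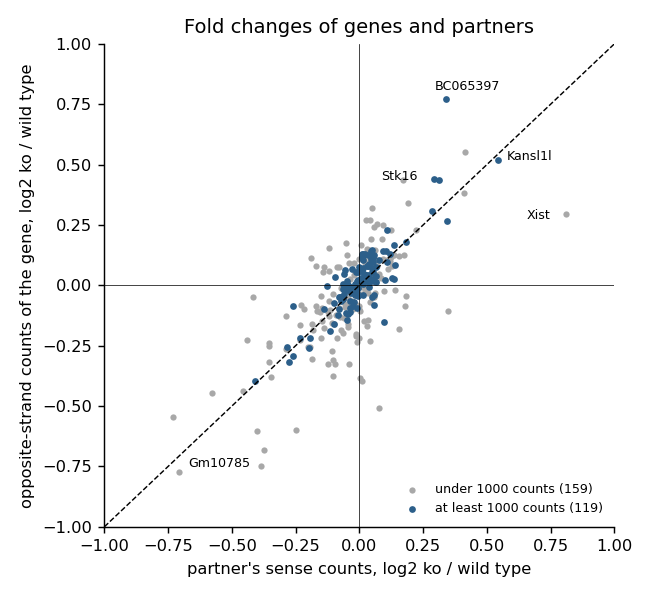
Log2 fold change between ko and wild type of the opposite-strand counts of a gene (vertical axis) against that of the sense counts of its partner (horizontal axis), 278 pairs, with 119 of at least 1000 opposite-strand counts in blue. Most pairs lie near the dashed line of equal change (median absolute difference 0.06), and BC065397 lies above and Xist below it.

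Of 276 partners, 275 had enough sense counts to be tested and 4 (1.45%) were called, against 1.24% of all 12222 genes tested on the sense strand. They were Tuba4a, Rpe, Cryzl1 and Oxct1. The count rests on the libraries used, since it was 1 without any of the ko libraries, p42 or p43, and 8 without p56. On their own sense strand, 138 of the 316 genes had enough counts to be tested, and 0 were called by edgeR's quasi-likelihood test, with 15 at an unadjusted p under 0.05, against 14.6% of all genes tested on the sense strand.

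Whether the opposite strand changed differently from the gene's own strand was tested with an interaction term between strand and group. Of the 316 genes 1 was called, against 0.0398% of 12560 genes tested, and 21 had an unadjusted p under 0.05, against 2.83% of all genes tested. Only 1359 genes had enough opposite-strand counts to be tested on that strand, and the 12560 also include genes with few such counts. The shares of the 316 and of all genes are therefore not like for like. The called gene was BC065397, whose own sense counts were 29, 40 and 27 in ko clones 1, 2 and 3 and 56, 75 and 49 in p42, p43 and p56. The difference between both log2 fold changes was 1.40 (SE 0.26, adjusted p = 2.0e-04 by edgeR), with 0.77 on the opposite strand and -0.62 on the sense strand. The call was lost without ko clone 3 or without p43.

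The 14 genes on chromosome 14 had a median log2 fold change of -0.24, with 12 of 14 lower in ko. Without p56, in which chromosome 14 stood apart most, the median was -0.06 and 9 of 14 were lower. In sense counts chromosome 14 was also lower in the ko clones than in p42 and p43, which leaving out p56 does not remove. The other genes had a median of -0.004 with and -0.006 without p56. Tmem55b reached 269, 326 and 310 opposite-strand CPM in ko clones 1, 2 and 3, 305 and 291 in p42 and p43, and 456 in p56. Its log2 fold change was -0.22 (adjusted p = 0.43 by edgeR) and went to 0.02 without p56. Rpgrip1, on the same chromosome, had -0.29 (adjusted p = 0.093 by edgeR), with 150.4, 149.6 and 165 CPM in ko against 174, 174 and 221 in wild type. Without p56 it was -0.17 (adjusted p = 0.40 by edgeR).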

How the data were processed

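RNA-seq of 3 Morc3 ko and 3 wild-type ES cell libraries was analysed. Per the labels and the study's methods, the authors depleted ribosomal RNA, sequenced strand-specific libraries as 50 bp paired-end reads, aligned them to mm10 with STAR and deposited raw counts per gene for both strands together and for each strand. Which gene annotation STAR used is not given in the sources used here. The column with the larger total was taken as sense. Opposite-strand counts were tested with edgeR 4.0.16 in R 4.3.3 (quasi-likelihood, filterByExpr, Benjamini-Hochberg, two-sided, called under 0.01), with sense gene totals as library sizes. DESeq2 and limma-voom were alternatives. SE is the fold change divided by the root of F. Partners came from GENCODE M21 exon overlap on GRCm38, the assembly of mm10. The script was tested on simulated counts. Counting error limits precision for genes near 200 counts. Members and lists were chosen with earlier results of these data known. Named genes were Morc3, called genes, the 15 largest sums, the 5 largest rises and falls, listed antisense pairs, edge genes and all their partners. Unassigned reads stayed out of library sizes. Results of the 2 left-out genes are not reported here.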

Additional observations from a re-analysis of the deposited data

Results flagged for a closer look

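BC065397 was singled out because its change between ko and wild type differed between strands by a test of the difference itself. The interaction term was 1.40 on the log2 scale (SE 0.26, adjusted p = 2.0e-04 by edgeR), with the opposite strand higher and the sense strand lower in ko in 3 of 3 clones. Samples far from their group were not searched for by a rule, since each group holds 3 libraries. The departure of p56 on chromosome 14 is described above.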

How the results depend on the processing

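The libraries hold 3 samples a group, and genes near 200 counts have wide errors. The count of the 316 genes called on the opposite strand was 4, and it was 2 with opposite-strand totals and their own TMM factors, 2 without a filter on low counts and 1 by DESeq2. The count over all genes tested, 11, went to 5 with opposite-strand totals and to 4 by DESeq2, and the count of called partners, 4, to 7 by DESeq2. The median log2 fold change of the 316 was -0.0092, and it was 0.0091 with TMM factors of the sense counts, 0.0186 with DESeq2 size factors of the sense counts, -0.067 with opposite-strand totals and 0.016 with a floor of 500 counts, which left 204 genes. Leaving out 1 library at a time gave 1 to 4 of the 316 genes called, 4 to 11 over all genes, 1 to 8 partners, 0 to 2 in the interaction, and a median of -0.0233 to 0.0009. The cause of these shifts was not tested.

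Small fold changes of uncalled genes turned sign. Map3k15 went to 0.0105 and 0.0197, and Ino80dos to 0.0052 and 0.0144, with TMM factors and size factors of the sense counts. With opposite-strand totals AV051173 went to -0.0348, Cand2 to -0.0074, Tti2 to -0.0099 and Srr to -0.0173. With 1 library left out, the ranges were -0.0565 to 0.028 for Map3k15, -0.0375 to 0.0188 for Ino80dos, -0.0036 to 0.0937 for Srr, -0.0102 to 0.0697 for AV051173, -0.3341 to 0.0178 for Tmem55b and -0.0729 to 0.0083 for Acat3. Of 364 recomputed values of 26 named genes, 322 kept their direction and their side of the threshold, and Morc3 stayed called under each setting tried, at -1.44 to -1.09 with 1 library left out.

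No paired analysis was possible because the groups share no replicate numbers.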
